A study of Homo sapiens with 12 samples.

Results

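The genes described here encode 10 kinesins that work in cell division: KIF11, KIF14, KIF15, KIF18A, KIF20A, KIF22, KIF23, KIF2C, KIF4A and KIFC1. They were chosen by symbol, with earlier results of these data known, and all 10 had a named row, of 14884 genes measured. The study treated MM.1S cells, a human line of multiple myeloma that glucocorticoids kill, for 24 h and measured RNA on 12 Affymetrix arrays, 3 for each of 4 groups. The control group had vehicle alone. The PD group had pomalidomide at 500 nM with dexamethasone at 10 nM, and the FPD group had filanesib at 1 nM in addition to both. The treatment label of the F group gives filanesib at 1 nM with dexamethasone at 10 nM, whereas its title carries the letter F alone. DDIT4, a gene that glucocorticoids induce, lay at 5.97 ± 0.11 in F, 5.99 ± 0.08 in control and 10.45 ± 0.01 in PD (mean log2 ± SD, n = 3). FKBP5, another such gene, lay at 5.74 ± 0.30 in F, 5.57 ± 0.03 in control and 7.06 ± 0.12 in PD. Its highest F array read 6.09. It is not settled here whether the F cells had dexamethasone. Filanesib inhibits the motor encoded by KIF11. Pomalidomide binds cereblon and directs the degradation of IKZF1 and IKZF3, and dexamethasone is a synthetic glucocorticoid.

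Kinesins are motor proteins that use ATP to move along microtubules or to shorten them. KIF11 slides the microtubules of the mitotic spindle apart and separates its poles, KIF15 can hold a bipolar spindle when KIF11 is inhibited, and KIFC1 walks the other way and draws poles together. KIF18A, KIF2C, KIF4A and KIF22 act on chromosomes and microtubule ends, and KIF14, KIF20A and KIF23 act at the spindle midzone when the cell divides. Transcripts of such motors accumulate towards mitosis, and cells held in mitosis by a KIF11 inhibitor form spindles with a single pole.

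Values are log2 RMA expression values as the authors deposited them. All 10 kinesins were well above the array medians of 4.23 to 4.27, with means over the 12 arrays between 7.71 (KIF15) and 10.29 (KIF11). These levels depend on the probes and are not compared between genes. Arrays of a group correlated at r = 0.988 to 0.992, and no 2 arrays held identical values. Markers of the labelled cell type were high in control cells, among them SDC1 (10.19) and IRF4 (11.44). The myeloid markers CD14 (3.51) and LYZ (2.93) and the T cell marker CD2 (4.06) lay below or near the array medians. The myeloid marker MPO (4.48), the B cell marker PAX5 (4.84) and EPCAM (4.60) lay somewhat above them. VIM (8.17) and KRT18 (7.51), from the stromal and epithelial list, were well above them. Separate cultures are not named in the labels, so p-values reflect the spread between the arrays of a group, which may be technical. A change in the share of cells that carry a transcript cannot be told apart from a change in its amount per cell.

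The promoters of the kinesins are shown first because genes of late cell cycle phases often carry a cell cycle homology region (CHR, TTTGAA), at which the MuvB complex binds, near a CCAAT box, at which NF-Y binds. RefSeq promoters (GRCh38.p14, 250 bases before to 50 after the transcription start, 300 in all) were found for all 10 genes, with 2 windows for KIF22. TTTGAA was present on either strand in the windows of 7 of 10 genes (KIF11, KIF14, KIF15, KIF18A, KIF23, KIF4A and KIFC1), against 15.2% of 35116 promoters of that length. CCAAT was present in 8 of 10, against 34.6%, and both motifs together in 6 of 10, against 5.9%. Kinesins are counted here by gene, and the shares over all promoters by window. By window, TTTGAA was present in 7 of 11, CCAAT in 8 of 11 and both in 6 of 11. The variant TTTAAA, searched after the windows had been seen, was found in KIF14, KIF20A, KIF23 and KIF2C, against 12.2%. No motif matches overlapped. The stretches below run from 90 bases before to 30 after the start, in the direction of transcription. Capitals mark TTTGAA (or TTCAAA, its other strand), CCAAT (or ATTGG) and TTTAAA. KIF11 is shown as the drug target, KIF14, KIF15, KIF18A, KIF23 and KIF4A as the genes that passed the test for filanesib below, and KIF2C and KIF22 as genes without TTTGAA. KIFC1, which has TTTGAA, and KIF20A, which lacks it, are not shown, and neither passed that test. Whether the motif goes with the call was not tested.
KIF11 (chr10:92593040-92593159, plus strand): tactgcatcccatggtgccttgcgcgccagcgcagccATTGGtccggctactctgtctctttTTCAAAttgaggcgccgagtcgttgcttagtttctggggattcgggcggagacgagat
KIF14 (chr1:200620722-200620841, minus strand): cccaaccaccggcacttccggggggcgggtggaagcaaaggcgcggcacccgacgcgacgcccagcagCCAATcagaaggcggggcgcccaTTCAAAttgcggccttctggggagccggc
KIF15 (chr3:44761704-44761823, plus strand): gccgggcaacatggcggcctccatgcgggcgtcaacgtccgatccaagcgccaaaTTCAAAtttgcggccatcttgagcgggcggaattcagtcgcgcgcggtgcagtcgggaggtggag
KIF18A (chr11:28108127-28108246, minus strand): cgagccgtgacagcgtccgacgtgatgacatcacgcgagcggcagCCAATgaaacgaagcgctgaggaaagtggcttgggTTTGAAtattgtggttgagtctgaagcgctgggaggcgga
KIF23 (chr15:69414259-69414378, plus strand): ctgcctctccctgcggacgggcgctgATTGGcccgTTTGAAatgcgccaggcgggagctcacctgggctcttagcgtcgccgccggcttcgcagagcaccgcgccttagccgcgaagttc
KIF4A (chrX:70290014-70290133, plus strand): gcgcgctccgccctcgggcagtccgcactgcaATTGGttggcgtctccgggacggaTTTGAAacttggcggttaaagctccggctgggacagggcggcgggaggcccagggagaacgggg
KIF2C (chr1:44739747-44739866, plus strand): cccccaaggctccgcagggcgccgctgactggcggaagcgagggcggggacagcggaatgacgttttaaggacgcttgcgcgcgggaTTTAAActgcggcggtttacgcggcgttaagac
KIF22 (chr16:29790661-29790780, plus strand): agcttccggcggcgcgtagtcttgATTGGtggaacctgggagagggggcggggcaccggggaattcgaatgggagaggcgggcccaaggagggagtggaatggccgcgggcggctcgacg
In KIF11 the TTTGAA match lies 20 bases from the CCAAT match, in KIF4A 19, in KIF14 18, in KIF18A 30, in KIF23 4 and in KIFC1, which has 2 CCAAT matches, 45 and 74. KIF15 has TTTGAA without CCAAT in its window, and KIF22 has CCAAT alone. A match describes the sequence and does not show that a factor binds there.

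**Figure D1:**
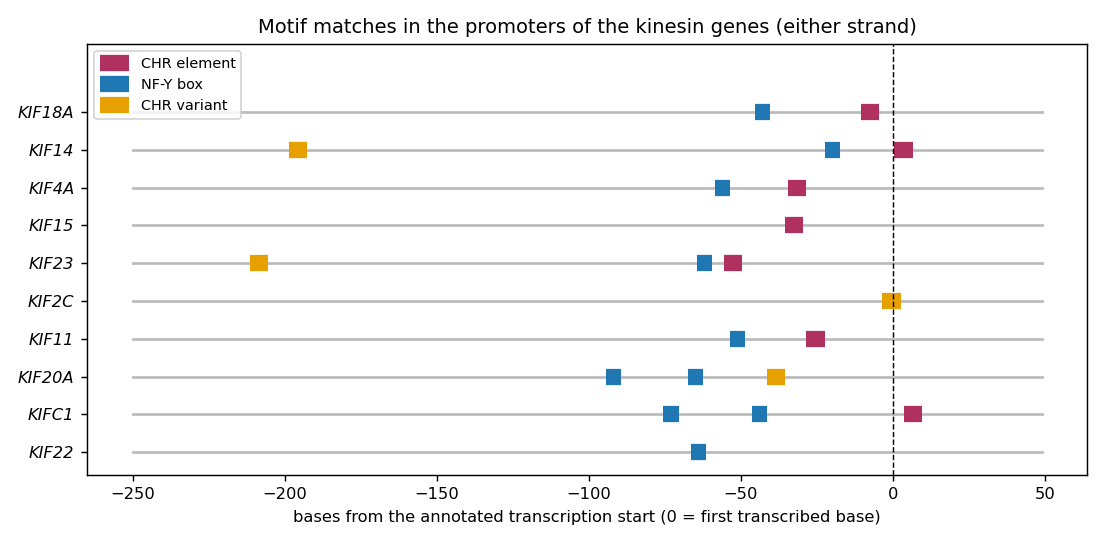
Matches of the CHR element, its variant and the NF-Y box on either strand, by distance in bases from the annotated transcription start, for 1 RefSeq window per kinesin gene. The CHR element is present in 7 of 10 genes, and KIF22 has the NF-Y box alone.

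The kinesin genes were compared between arms with and without filanesib. The design holds 2 such comparisons that share no array, F against control and FPD against PD. Their average sets 6 arrays with filanesib against 6 without. If the F cells had dexamethasone, F against control and this average hold its effect as well as that of filanesib. Calls named for filanesib in the text are those of this average. In this average all 10 kinesins had a positive log2 change, from 0.17 (KIF22) to 0.50 (KIF18A), with a median of 0.29 beside -0.0016 over all genes, of which 49.3% were positive. KIF18A, KIF14, KIF4A, KIF15 and KIF23 rose (limma, Benjamini-Hochberg adjusted p under 0.05 over all genes). These are 5 of 10 kinesins, where 0.383% of all genes rose and 0.047% fell. All 10 kinesins, and 8.57% of all genes, had an unadjusted p under 0.05. In 6 of 10 the 6 arrays with filanesib all lay above the 6 without, against 0.363% of all genes.

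**Figure D2:**
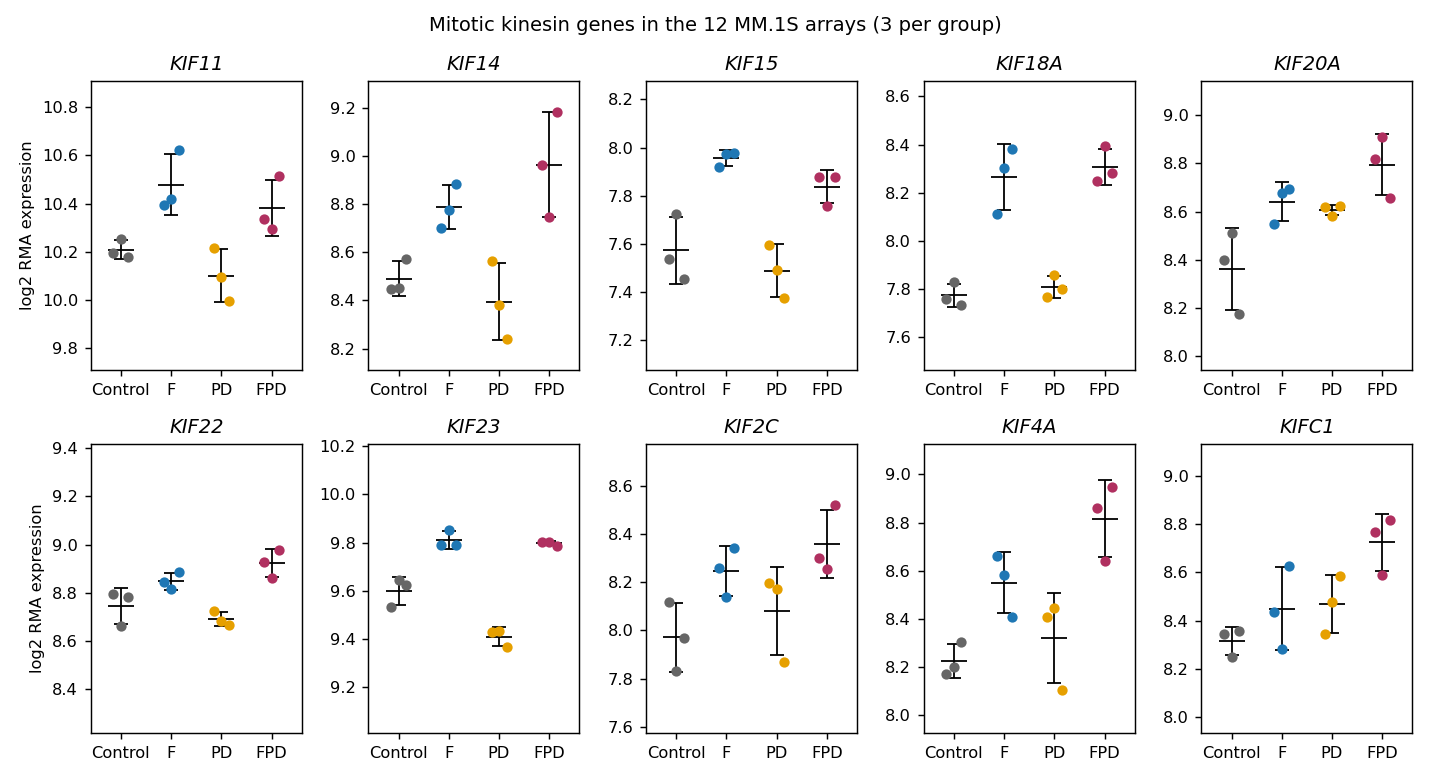
Log2 RMA expression of each kinesin gene in the 12 arrays, 1 point per array, with the mean and SD of each group of 3 (bars). Every panel spans the same height on the log2 scale, and KIF11, KIF14, KIF15, KIF18A, KIF22 and KIF23 are higher in every F and FPD array than in any control or PD array.

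Among the motors of the spindle poles, KIF11 (transcript cluster 16707468) read 10.20, 10.25 and 10.18 in the control arrays, 10.39, 10.42 and 10.62 in the F arrays, 10.21, 10.09 and 9.99 in the PD arrays and 10.34, 10.30 and 10.51 in the FPD arrays. The lowest array with filanesib lay above the highest without it, so the arms did not overlap. The average change was 0.28 (95% interval 0.13 to 0.42, 1.21-fold). It did not pass the limma test over all genes (adjusted p = 0.132), but did with a variance trend and robust moderation (adjusted p = 0.0416). An exact permutation test of KIF11 alone exchanged arrays within the arms with and within the arms without pomalidomide. Its two-sided p was 0.005, the smallest that its 400 arrangements allow. Arms that do not overlap always give that smallest value, so it adds nothing to the separation of the arrays. The change was 0.27 (0.061 to 0.48) in F against control and 0.28 (0.074 to 0.49) in FPD against PD.

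KIF15, the motor that can stand in for KIF11, read 7.54, 7.73 and 7.46 in the control arrays, 7.92, 7.97 and 7.98 in the F arrays, 7.60, 7.49 and 7.38 in the PD arrays and 7.88, 7.76 and 7.88 in the FPD arrays. Every array with filanesib lay above every array without it, and the gene rose by 0.37 (0.22 to 0.51, 1.29-fold, limma adjusted p = 0.0260). KIFC1, the motor that opposes KIF11, ranged from 8.25 to 8.36 in control, 8.28 to 8.63 in F, 8.34 to 8.59 in PD and 8.59 to 8.82 in FPD. Its F arrays overlapped control, and its average change of 0.19 (0.035 to 0.35) did not pass the test (limma adjusted p = 0.469). KIFC1 had 4 rows, of which 2 held the same values, another nearly the same, and the last lay at a mean of 4.90.

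Of the motors that act on chromosomes and microtubule ends, KIF18A, which shortens the swings of chromosomes at the spindle equator, showed the highest change. It read 7.76, 7.83 and 7.74 in the control arrays, 8.11, 8.30 and 8.38 in the F arrays, 7.77, 7.86 and 7.80 in the PD arrays and 8.25, 8.39 and 8.28 in the FPD arrays. The 2 sets of arrays lay apart by more than the whole range within the arrays without filanesib, and the gene rose by 0.50 (0.36 to 0.63, 1.41-fold, limma adjusted p = 0.00265), rank 20 of 14884 genes. The changes were nearly equal in the 2 separate comparisons, 0.49 in F against control and 0.50 in FPD against PD.

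KIF4A, a motor that binds chromosome arms and organises the midzone, read 8.17, 8.20 and 8.30 in the control arrays, 8.66, 8.58 and 8.41 in the F arrays, 8.41, 8.45 and 8.11 in the PD arrays and 8.86, 8.64 and 8.95 in the FPD arrays. It rose by 0.41 (0.24 to 0.58, 1.33-fold, limma adjusted p = 0.0311), although F replicate 3 at 8.41 lay below PD replicate 2 at 8.45. KIF4B is an intronless copy of KIF4A and may share signal with it. Its own row lay at 6.57 ± 0.23 in control (n = 3), and its average change was 0.036 (limma adjusted p = 0.935). KIF2C, a microtubule depolymerase at centromeres, ranged from 7.83 to 8.12 in control, 8.14 to 8.34 in F, 7.87 to 8.19 in PD and 8.26 to 8.52 in FPD, with an average change of 0.28 (0.11 to 0.45, limma adjusted p = 0.232). KIF22, the other chromosome arm motor, showed the lowest change, 0.17 (0.042 to 0.29, limma adjusted p = 0.382), yet its 6 arrays with filanesib (8.82 to 8.98) did not overlap the 6 without (8.66 to 8.80).

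Of the motors of cytokinesis, KIF14, which works with citron kinase, read 8.45, 8.45 and 8.57 in the control arrays, 8.70, 8.77 and 8.88 in the F arrays, 8.56, 8.38 and 8.24 in the PD arrays and 8.96, 8.75 and 9.18 in the FPD arrays. It rose by 0.43 (0.26 to 0.61, 1.35-fold, limma adjusted p = 0.0294), with 0.30 in F against control and 0.57 in FPD against PD. KIF23, a subunit of centralspindlin, read 9.53, 9.64 and 9.62 in the control arrays, 9.79, 9.85 and 9.79 in the F arrays, 9.43, 9.43 and 9.37 in the PD arrays and 9.80, 9.80 and 9.79 in the FPD arrays. The arms did not overlap, and the gene rose by 0.30 (0.18 to 0.42, 1.23-fold, limma adjusted p = 0.0300). KIF20A, which carries the chromosomal passenger complex to the midzone, ranged from 8.18 to 8.51 in control, 8.55 to 8.70 in F, 8.58 to 8.62 in PD and 8.66 to 8.91 in FPD. Its average change of 0.23 (0.080 to 0.39) did not pass the test (limma adjusted p = 0.278), and its F arrays overlapped PD.

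Of these calls only that of KIF18A held in all 20 alternative settings, with limma adjusted p of 0.0132 at most. KIF14 lost its call without Control replicate 1 or 2, F replicate 2 or 3, PD replicate 2 or 3, or FPD replicate 1 or 3 (limma adjusted p 0.0598 to 0.0933). KIF15 lost it without Control replicate 1 or 3, F replicate 2 or 3, PD replicate 2 or 3, or FPD replicate 1 or 3 (0.0524 to 0.0831). KIF23 lost it without Control replicate 1, F replicate 2 or 3, PD replicate 2 or 3, or any 1 FPD replicate, and after a second quantile normalization (0.0504 to 0.0993). KIF4A lost it without Control replicate 1 or 2, F replicate 1 or 2, PD replicate 3, or FPD replicate 1 or 3, after that normalization, and with the replicate number as a block (0.0567 to 0.107). Without 1 array, between 1 and 5 kinesins were called. Over all settings every kinesin kept a positive change in this average, 0.13 at the lowest.

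**Figure D3:**
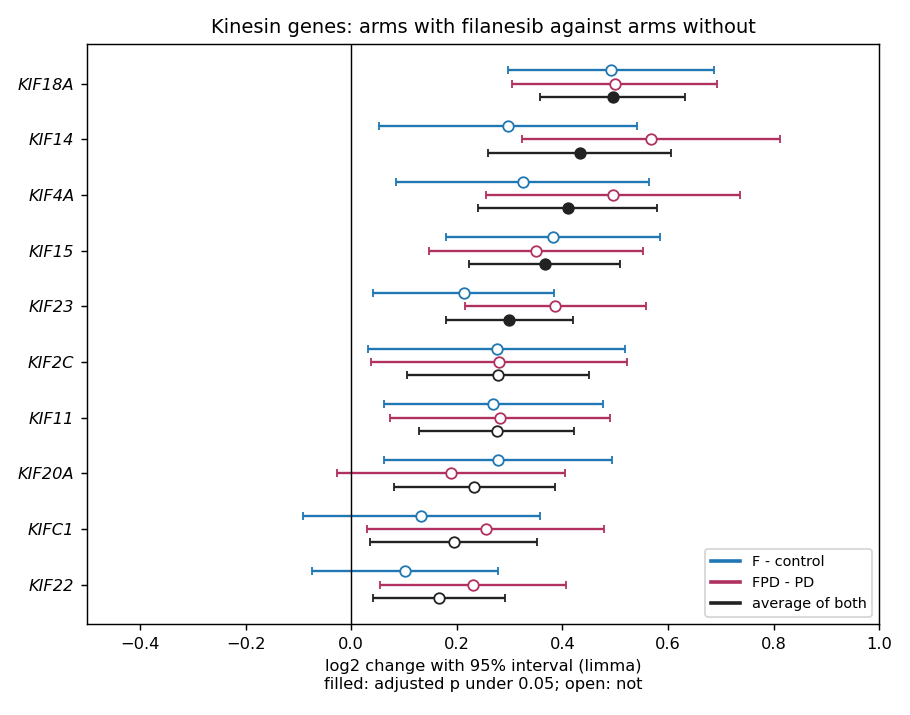
Log2 change of each kinesin gene with its 95% interval from limma for F minus control, FPD minus PD and the average of both (3 arrays a group). Filled points passed the test over all genes, and all of them belong to the average, for KIF18A, KIF14, KIF4A, KIF15 and KIF23.

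Taken one at a time, neither comparison called a kinesin. In the check on simulated data, F against control called 8% of changes of 0.3 and 60% of changes of 0.5. FPD against PD called 12% and 56%. The simulation changed 50 genes by each of 0.3, 0.5, 1 and 2. Many strong changes ease the adjusted cutoff, so these percentages may be too high for the data. A count of 0 therefore does not show that the kinesins were unchanged. In F against control 0 of 10 passed the limma test (lowest adjusted p = 0.155, KIF18A), where 0.00672% of all genes rose and 0% fell. An unadjusted p under 0.05 was reached by 8 of 10, against 6.01% of all genes, and in 9 of 10, all but KIFC1, the F arrays all lay above the control arrays, against 4.84%. In FPD against PD 0 of 10 passed (lowest adjusted p = 0.0710, KIF18A), where 0.0336% of all genes rose and 0% fell. Here 9 of 10 had an unadjusted p under 0.05, against 8.62%, and in all 10 the FPD arrays lay above the PD arrays, against 8.1%. Among the genes above the median mean KIF18A (limma adjusted p = 0.0377) and KIF14 (0.0389) passed in FPD against PD, and with a variance trend and robust moderation KIF18A (0.0287), KIF14 (0.0317) and KIF23 (0.0287) did.

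The difference between these 2 comparisons was then tested, FPD minus PD less F minus control. If the F cells had dexamethasone, F against control holds its effect too, and the difference is not that of filanesib alone. In limma 0 of 10 kinesins passed, as did 0% of all genes, and 0 of 10 had an unadjusted p under 0.05, against 5.6% of all genes. The differences ran from -0.090 for KIF20A (-0.40 to 0.22) to 0.27 for KIF14 (-0.074 to 0.62). For KIF11 the difference was 0.012 (-0.28 to 0.31), so a difference of up to 0.31 on the log2 scale lies within its interval.

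Pomalidomide with dexamethasone was set against control. In limma 0 of 10 kinesins passed, where 6.84% of all genes rose and 8.63% fell, and 2 of 10 had an unadjusted p under 0.05, against 26.5%. The median change was -0.011, and 5 of 10 were positive, against 49.4% of all genes. KIF20A had the highest value, 0.24 (0.029 to 0.46, limma adjusted p = 0.129), and its 3 PD arrays lay above control, as in 13.2% of all genes. KIF23 had the lowest, -0.19 (-0.36 to -0.018, adjusted p = 0.141), and its 3 PD arrays lay below control, as in 15.8%. The change of KIF11 was -0.11 (-0.32 to 0.10, adjusted p = 0.555).

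FPD differs from F by pomalidomide if the F cells had dexamethasone, and by pomalidomide with dexamethasone if they had not. In this comparison 0 of 10 passed in limma, where 7.5% of all genes rose and 6.64% fell. An unadjusted p under 0.05 was reached by 2 of 10, against 24.7%. KIFC1 had the highest value, 0.28 (0.051 to 0.50, limma adjusted p = 0.103), and passed without F replicate 3 (0.0483) and with array weights (0.0392). KIF15 had the lowest, -0.12 (-0.32 to 0.084, adjusted p = 0.521).

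All 3 drugs together were also set against control. In FPD against control 6 of 10 kinesins rose and none fell (limma), where 7.26% of all genes rose and 5.89% fell, and the median change was 0.40 beside -0.016 over all genes. The 6 were KIF4A (0.59, 1.51-fold), KIF18A (0.53, 1.45-fold), KIF14 (0.47), KIF20A (0.43), KIFC1 (0.41) and KIF2C (0.39), with limma adjusted p from 0.000859 for KIF18A to 0.0332 for KIF2C. The FPD arrays of all 10 lay above the control arrays, against 14.4% of all genes, and 8 of 10 had an unadjusted p under 0.05, against 24.5%. KIF11 had a change of 0.17 (-0.035 to 0.38, limma adjusted p = 0.312), and 0.11 without FPD replicate 3. KIF15, with a positive call for filanesib above, had 0.26 (limma adjusted p = 0.0850). It passed among the genes above the median mean (0.0444) and without Control replicate 2 (0.0439).

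Left-out arrays moved the weaker calls of FPD against control. The call of KIF2C was lost when Control replicate 2 (limma adjusted p = 0.138), Control replicate 3 (0.0746), FPD replicate 1 (0.0605) or FPD replicate 3 (0.155) was left out. KIFC1 lost it without Control replicate 2 (0.0637), FPD replicate 1 (0.0610) or FPD replicate 3 (0.0767), and KIF14 without FPD replicate 3 (0.0688). Without FPD replicate 3 the count of called kinesins was 3. FPD against control shares its control arrays with F against control and PD against control, and its FPD arrays with FPD against PD.

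**Figure D4:**
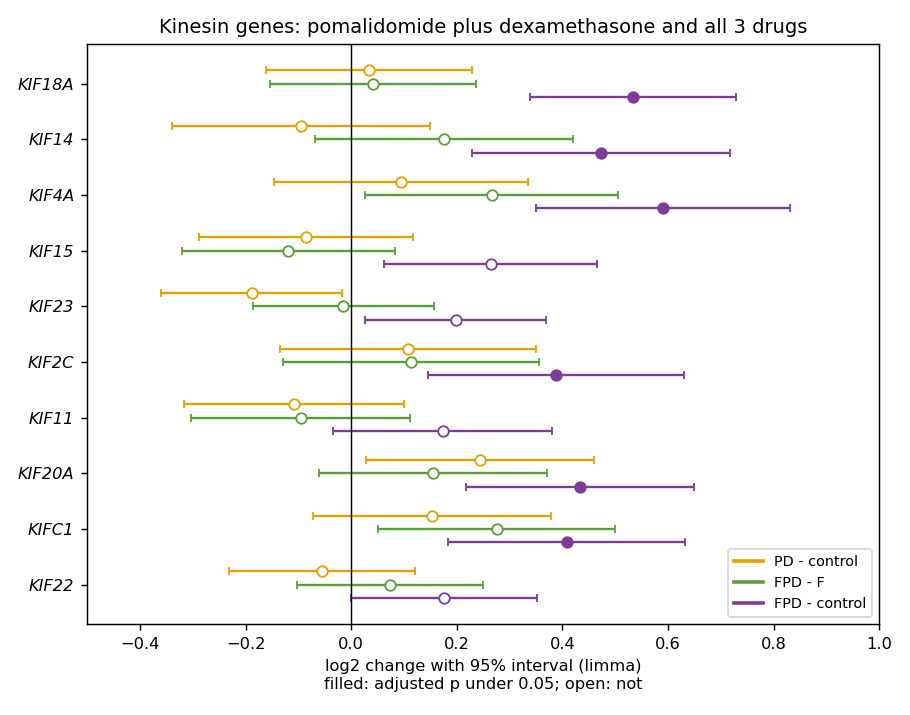
Log2 change of each kinesin gene with its 95% interval from limma for PD minus control, FPD minus F and FPD minus control (3 arrays a group). Filled points passed the test over all genes, 6 of 10 in FPD minus control and 0 of 10 in the other two.

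Likeness between the genes over the 12 arrays was described by Pearson's r. Between 2 kinesins r ranged from 0.27 to 0.94 over 45 pairs, with a median of 0.70. This is a description of arrays that share the same 4 groups. The gene most like KIF11 among 7441 ranked genes was KIF20B, a further kinesin of cytokinesis (r = 0.95 over 12 arrays), followed by CKAP2L, a spindle protein (0.94), SPDL1, which recruits dynein to kinetochores (0.93), CCDC18 (0.93), XRCC4, a factor of DNA end joining (0.92), KIF15 (0.92), the endonuclease subunit EME1 (0.91), the decapping enzyme DCP2 (0.91), ARHGAP11B (0.89) and the mitotic kinase AURKA (0.89). In the same order KIF14 was at rank 26, KIF23 at 50, KIF18A at 86, KIF22 at 116, KIF2C at 246 and KIF4A at 609. KIF20A (rank 2098, r = 0.35) and KIFC1 (rank 2167, r = 0.34) were least like KIF11. After the group means were removed, r to KIF11 was 0.83 for KIF14, 0.65 for KIF2C, 0.63 for KIF15 and 0.47 for KIF22. It was 0.28 for KIF18A, 0.27 for KIFC1, 0.23 for KIF4A, 0.095 for KIF23 and -0.033 for KIF20A.

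Related gene lists were described in the same average of arms with against arms without filanesib. Of 5 other mitotic kinesins measured, KIF20B (0.49, limma adjusted p = 0.00918) and KIF18B, a motor of astral microtubule ends (0.30, adjusted p = 0.0420), rose and none fell, against 0.383% and 0.047% of all genes, with a median of 0.081. KIF20B held in all 20 alternatives, and KIF18B lost its call in 14 of them (highest adjusted p = 0.138). KIF2B (-0.20, adjusted p = 0.480) had the lowest value, at a control level of 4.85, somewhat above the array medians. Of 33 other kinesins and kinesin light chains, most of them motors of transport, none rose or fell in limma. Their median was -0.0051, with KIF24 (0.27, limma adjusted p = 0.215) and KIF16B (0.24, 0.529) the highest and KIFC2 (-0.18, 0.641) and KIF17 (-0.17, 0.569) the lowest. Several of the 33 lay below the array medians, among them KIF6 (mean over the arrays 3.29) and KIF5A (3.59). The lists are not matched for level.

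Of 17 measured partners of these motors in the spindle, 4 rose and none fell, against 0.383% and 0.047% of all genes, with a median of 0.28 beside -0.0016. They were HMMR, which anchors spindle microtubules (0.55, limma adjusted p = 0.00918), the mitotic cyclin gene CCNB1 (0.51, 0.0104), the kinase gene PLK1 (0.41, 0.0307) and PRC1, which bundles microtubules at the midzone and binds KIF4A (0.38, 0.0137). HMMR and CCNB1 held in all 20 alternatives, PLK1 lost its call in 9 and PRC1 in 2. NEK6 (-0.11, limma adjusted p = 0.716) and NUMA1 (-0.067, 0.823) had the lowest values.

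Of 10 measured regulators of genes of late cell cycle phases, none passed for filanesib in limma, where 0.383% of all genes rose and 0.047% fell. A positive change was seen in 8 of 10, against 49.3% of all genes, and an unadjusted p under 0.05 in 3, against 8.57%. FOXM1, a transcription factor of these phases, had the highest value (0.29, limma adjusted p = 0.0509) and passed in 4 of 20 alternatives. LIN9, a MuvB subunit, had 0.27 (0.174), and RBBP4 (-0.051, 0.866) and RBL2 (-0.023, 0.943) had the lowest values. In PD against control, where 0 of 10 kinesins passed, 5 of these 10 regulators fell and 2 rose, against 8.63% and 6.84% of all genes. Named after their values were seen, those that fell were RBL1 (-0.59), TFDP1 (-0.54), RBBP4 (-0.48), MYBL2 (-0.48) and LIN54 (-0.36), and those that rose were LIN37 (0.83) and RBL2 (0.28).

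**Figure D5:**
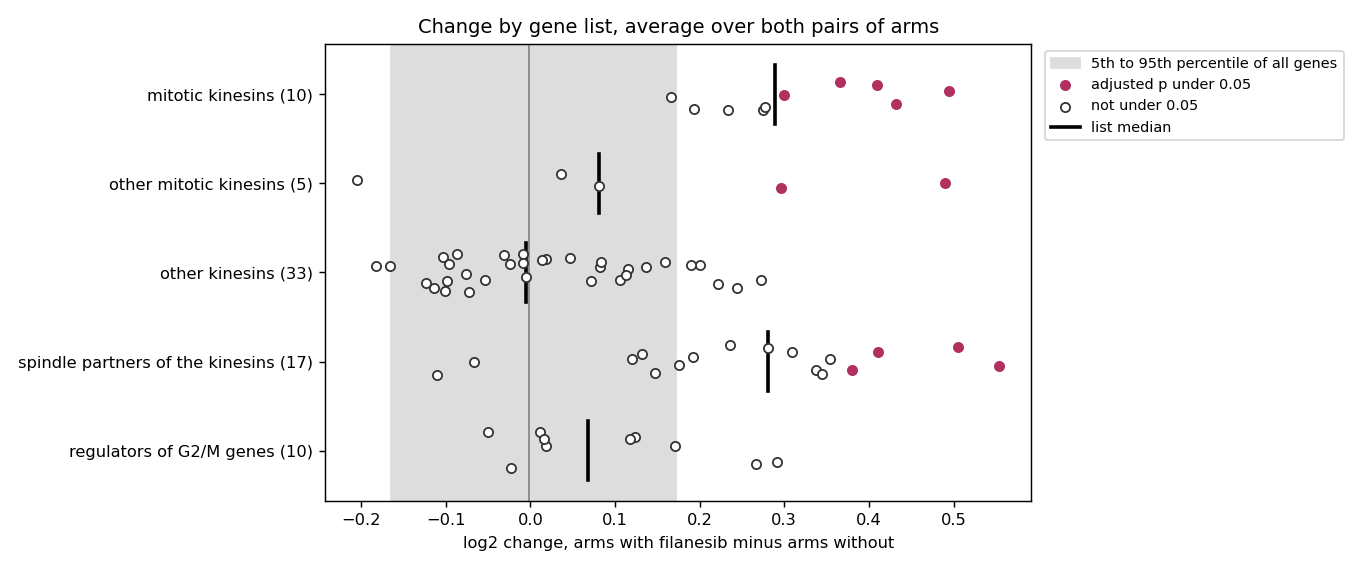
Log2 change of every measured gene of 5 lists in the average of arms with minus arms without filanesib, 1 point per gene, with the list median (bar) and the 5th to 95th percentile of all 14884 genes (grey). The 10 mitotic kinesins have a median of 0.29 and the 33 other kinesins and associated subunits one of -0.0051. Several of these 33 lie below the array medians, and the lists are not matched for level.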

How the data were processed

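The deposited table holds 1 log2 expression value per transcript cluster and array. The submitters' processing notes name RMA and Affymetrix Expression Console as the authors' tools, and their versions, settings and the genome build are not given in the sources used here. RMA forces the arrays to a common distribution and compresses low signals, and the number of arrays limits the precision. Of 53617 rows, 16098 had exactly 1 gene symbol in the platform annotation and 0 had several, while 37519 had none and entered no comparison. Where a gene had several rows (779 genes), its row of highest mean was used. All 14884 genes were tested without a filter in a model of group means over the 12 arrays (limma 3.58.1 under R 4.3.3, lmFit and eBayes, two-sided, Benjamini-Hochberg over all genes, call at adjusted p under 0.05), after a check on simulated data. Intervals are 95% confidence intervals. "Rose" and "fell" refer to this call.

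The kinesins, the context lists and the tests were chosen with earlier results of these data known. Every kinesin is described. Of each other list the 2 highest and 2 lowest genes in the filanesib average are named, with those called where 5 or fewer were, and likeness to KIF11 ranks genes above the median mean by Pearson's r. A list of 13 tubulin genes had no named row and was not analysed here. Alternatives were the compared arrays alone, a replicate block, a second quantile normalization, median centring, the mean of a gene's rows, every named row, genes above the median mean, trend and robust moderation, array weights, and each array left out.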

Additional observations from a re-analysis of the deposited data

How the results depend on the processing

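Counts of called kinesins in F against control, PD against control and the difference between F against control and FPD against PD were 0 in limma under every alternative run, and those in FPD against control stayed within 1.5 times of 6 except without FPD replicate 3. For filanesib arms against arms without it, 5 were called, 3 after a second quantile normalization, and 1 to 5 without 1 array, where calls over all genes fell from 64 to as few as 24. In FPD against PD the count of 0 became 2 among genes above the median mean and 3 with trend and robust moderation. In FPD against F it became 1 with array weights and lay between 0 and 1 without 1 array. In FPD against control it lay between 3 and 6 without 1 array. Apart from the filanesib calls without 1 array, calls over all genes under these alternatives are not given here. The counts are therefore not read as particular to the kinesins. The change of KIF11 in its exact test was 0.24 to 0.30. Its p lay at or next to the smallest value the arrangements allow in each setting, so it carries no measure of stability.

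Same-numbered arrays of different groups did not deviate together (r of deviations -0.26 to 0.16 over 18 pairs, beside -0.20 to 0.23 over 36 pairs of different number), so the numbers were not taken to pair arrays. With the replicate number as a block, 4 kinesins were called for filanesib and 6 in FPD against control, and 0 in the others. Calls over all genes with the block are not given here.

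Some values near 0 changed sign, none of them called. After the second quantile normalization this held for KIF22 in PD against control (0.0038), KIF23 in FPD against F (0.050), and the difference between F against control and FPD against PD of KIF18A (-0.032) and KIF2C (-0.032). With array weights that of KIF18A was -0.015, and with median centring the filanesib change of RBL2 was 0.0018. Without 1 array the filanesib change of KIF4B lay between -0.020 and 0.094, and the values in FPD against F between -0.035 and 0.10 for KIF18A and between -0.026 and 0.0064 for KIF23. That difference then lay between -0.053 and 0.085 for KIF11, -0.11 and 0.026 for KIF15, -0.069 and 0.066 for KIF18A, -0.16 and 0.0033 for KIF20A, and -0.10 and 0.075 for KIF2C. The median of all genes moved by less than 0.05 in any setting.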
